A study of Homo sapiens with 40 samples.

Results

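Autophagy and lysosome genes were followed while caspase-10 was knocked down in human myeloma and lymphoma cell lines. The set holds 58 gene symbols chosen by name for a role in autophagy or in the lysosome, and every probe with such a symbol in the array's annotation was taken. Of the 58, 28 were measured, by 62 probes, among 4604 named genes on the array. The other 30 were matched by no probe and are not analysed here.

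Autophagy wraps damaged protein, organelles or plain cytoplasm in a membrane sac and hands it to the lysosome, an acidic compartment whose hydrolases break the cargo down. A kinase and a lipid kinase complex start the sac, ubiquitin-like conjugation enzymes attach proteins of the ATG8 family to it, and receptors tie the cargo to the ATG8 proteins. Plasma cells, the normal counterpart of myeloma, secrete large amounts of antibody and are known to depend on this route for clearing protein and organelles, and caspase-10 is an initiator protease best known from death receptor signalling.

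The data were 40 arrays of 2 colours, a spotted cDNA design rich in lymphoid genes. SKMM1, H929 and KMS12 are lines from human multiple myeloma, whereas OCI-Ly7 and OCI-Ly19 come from human diffuse large B-cell lymphoma. The Cy5 channel held RNA of transduced cells induced with 20 ng/ml doxycycline to express a hairpin against CASP10, and the Cy3 channel held RNA of uninduced cells with the same construct on the same day. The question, by the study's title and design, was which genes follow the loss of caspase-10 in myeloma.

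Induced SKMM1 cells with shCasp10-2 were set against uninduced ones in 3 repeats of 4 days each. For H929 with shCasp10-3 there was 1 course of 4 days, and for H929 with shCasp10-2 there were 2 such repeats. KMS12 had 1 course of 4 days with each of shCasp10-3 and shCasp10-2, and OCI-Ly7 and OCI-Ly19 with shCasp10-2 had days 3 and 4. On 4 further arrays, days 1 to 4, induced SKMM1 cells with shCasp10-2 were set against SKMM1 cells induced to express a control shRNA. All cells on all arrays carried a retroviral vector and had been selected with puromycin, and whether they were clones or pools is not stated in the sources used here. Doxycycline was present in the Cy5 channel alone on the arrays against uninduced cells, so its effect and that of the hairpin cannot be told apart there, while both channels were induced on the arrays against the control shRNA.

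Every value below is a deposited log ratio, read as log2 of Cy5 over Cy3 and averaged over the probes of a gene, so that 1 stands for a doubling in induced cells. The direction is the likely one and is not stated. A ratio carries no level, so the genes cannot be ranked by abundance and the lines could not be checked against markers of plasma cells or B cells. Each channel was bulk RNA of a culture, so a smaller amount per cell and fewer cells that hold the transcript cannot be told apart. The days of 1 line, 1 hairpin and 1 repeat were treated as a course, the unit of replication. The labels do not say that repeats were separate cultures, so the spread behind each p-value is that between these samples and may be technical.

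The arrays differed in spread. On 12 arrays, called wide here, more than 10% of all probes lay beyond 3 in size, and these include all 4 arrays of SKMM1 repeat 2. On each wide array nearly all such probes lay on 1 side of 0. They lay below -3 in SKMM1 repeat 2, H929 and KMS12, and above 3 in SKMM1 repeat 3 and OCI-Ly7. Some arrays kept in the tests leaned likewise, with 7.48% of probes above 3 on day 3 of SKMM1 repeat 3. On day 4 of OCI-Ly7 it was 7.95%, and 6.38% lay below -3 on day 3 of H929 repeat 1. Whether the values of single genes follow these tails was not tested. Of 780 pairs of arrays, 87 had a Pearson correlation across probes below -0.3. The most opposed pair, at -0.517, was the SKMM1 arrays of day 5 that are placed here in repeats 2 and 3. Their labels name repeats 1 and 2, and the placing rests on consecutive database numbers alone. The direction of repeats 2 and 3 relative to each other is thus not settled. Unless stated otherwise, tests used the days 2 to 4 of the arrays that were not wide, 22 in all and 16 of myeloma against uninduced cells, with limma over 9681 features and Benjamini-Hochberg adjustment at 0.05. SKMM1 then rests on repeats 1 and 3.

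CASP10, the target, was below 0 on 14 of those 16 myeloma arrays, at -0.27 ± 0.19 (SD, n = 16 arrays). Its mean over 7 courses was -0.25 (SD 0.19), and 6 of the 7 were below 0 (p = 0.0313 by an exact sign-flip test, two-sided). The course above 0 was H929 with shCasp10-3, at 0.025. Over all 8 courses, wide arrays included, that mean was -0.63 (SD 0.59), and the course above 0 was SKMM1 repeat 3, at 0.011. In these 2 courses the mean ratio of the target was thus not lower with the arrays named. The limma fit gave -0.28 (SE 0.10, adjusted p = 0.170). Against the control shRNA its values on days 1 to 4 were all below 0, between -0.74 and -0.43. On the OCI-Ly7 arrays CASP10 was 2.04 and 1.497 on days 3 and 4, so there the label of a knockdown was not matched by a lower ratio, and results that rest on these arrays are given with and without them.

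**Figure D1:**
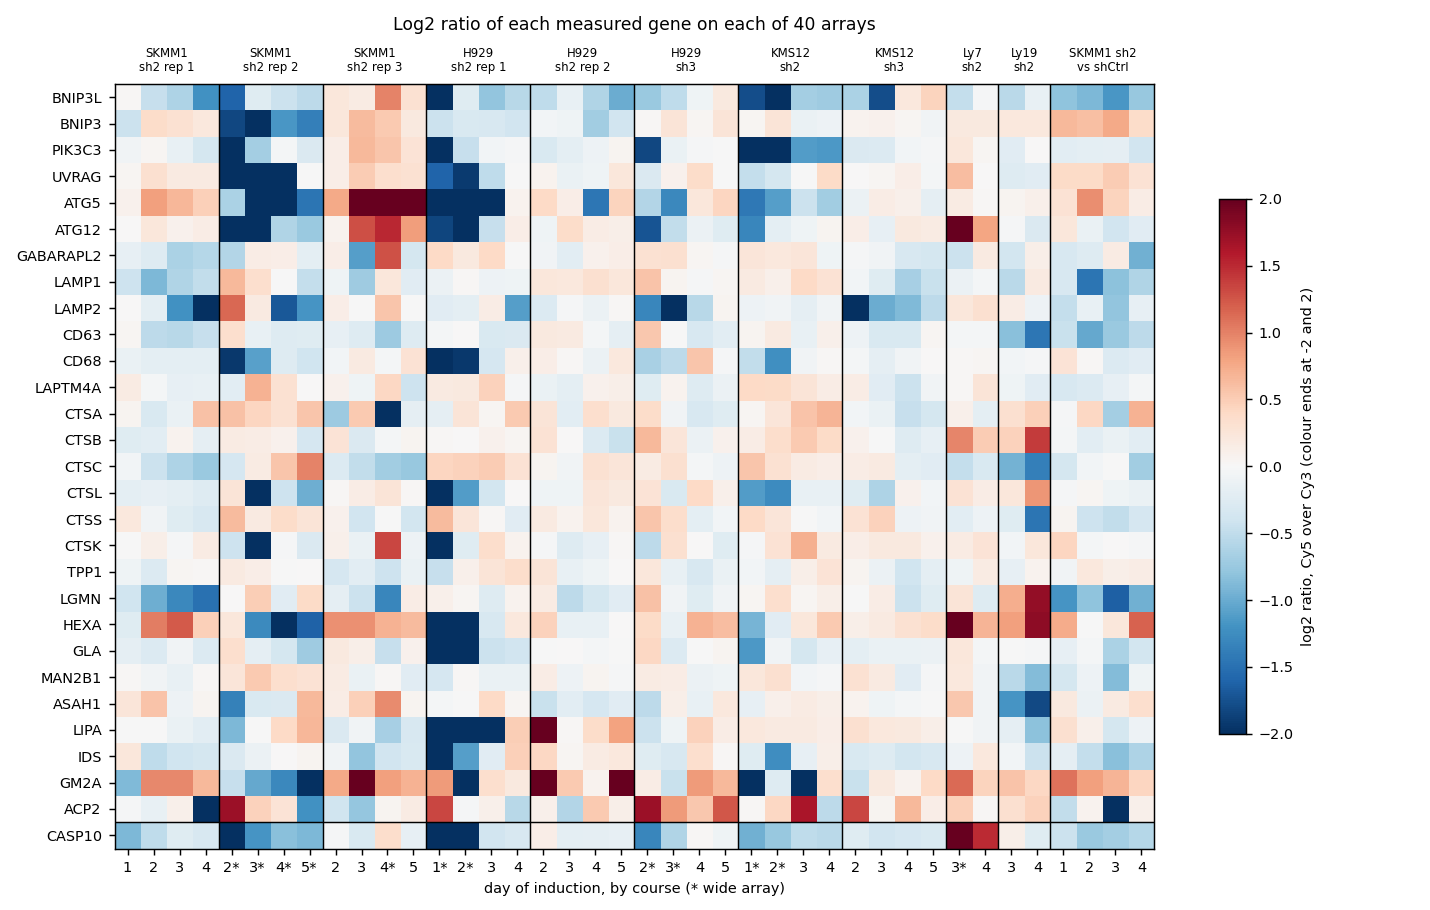
Log2 ratio of Cy5 over Cy3 (colour, from blue at -2 or lower to red at 2 or higher) of the 28 measured genes, in rows by role, and of CASP10 in the last row. Columns are the 40 arrays by course and day, sh2 and sh3 stand for shCasp10-2 and shCasp10-3, and asterisks mark the 12 wide arrays. Deep colours gather on the wide arrays of SKMM1 repeat 2 and H929 repeat 1, and the OCI-Ly19 columns hold deep colours that the OCI-Ly7 columns lack, as for ASAH1.

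In the 3 myeloma lines weighted equally, none of the 28 genes passed the test. Limma called 166 of the 9681 features, 1.71%, and 6 of the 28 genes had an unadjusted p under 0.05 against 17.1% of all features. The set was spread around 0. There were 11 genes above 0 and 17 below, with a median of -0.02, beside a median of 0.01 and 52.4% above 0 over all features. With all arrays, fitted as course means, limma called 0 of 9681 features in this and in every other comparison fitted that way. At an unadjusted p under 0.05 it gave 542 features, 5.6%, for the myeloma response.

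The mitophagy receptors were both measured, and their values in myeloma differed. BNIP3L, also called NIX, sits on the outer mitochondrial membrane and binds ATG8 proteins, and its ratios on the 16 arrays ran from -1.78 over a median of -0.58 to 0.23. It was below 0 on 13 of these arrays, and 2 of the 3 above 0 were SKMM1 repeat 3. The fit gave -0.49 (SE 0.15, adjusted p = 0.0948), and the 3 BNIP3L probes were below 0 alike, with means over the lines between -0.64 and -0.28. BNIP3, its close relative, ran from -0.69 over 0.045 to 0.64 and averaged 0.04 in the fit (SE 0.07, adjusted p = 0.861). Its 4 probes did not share a sign.

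Of the genes that start the membrane sac, PIK3C3 and UVRAG were measured, while ULK1 and BECN1 were not. PIK3C3, the catalytic subunit of the lipid kinase complex, ran from -1.15 over -0.12 to 0.65, and the fit gave -0.21 (SE 0.09, adjusted p = 0.239). The 4 PIK3C3 probes were all below 0 but far from equal, between -0.55 and -0.01. UVRAG, a partner of that kinase in endosome and autophagosome maturation, was above 0 on 11 of 16 arrays, with a fit of 0.12 (SE 0.07, adjusted p = 0.420). The conjugation partners ATG12 and ATG5 were at 0.13 (SE 0.12, adjusted p = 0.614) and 0.12 (SE 0.23, adjusted p = 0.847). GABARAPL2, the 1 of 4 listed ATG8 proteins with a probe, was -0.16 (SE 0.12, adjusted p = 0.527). No probe named a cargo receptor, SQSTM1 or NBR1, or a proton pump subunit of the list.

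All 5 measured membrane proteins of the lysosome had estimates below 0, and none passed. LAMP2, of which an isoform is the receptor of chaperone-mediated autophagy, had the lowest, at -0.58 (SE 0.19, adjusted p = 0.124). It was below 0 on 14 of 16 arrays, from -2.12 over a median of -0.24 to 0.15, and most of the far values belonged to 2 courses. SKMM1 repeat 1 held -0.20, -1.20 and -2.12 on days 2 to 4 and KMS12 with shCasp10-3 held -1.99, -0.99 and -0.88, while in the other courses the lowest was -1.11, on day 4 of H929 repeat 1. CD63, a tetraspanin of late endosomes and lysosomes, ran from -0.56 over -0.27 to 0.20, with a fit of -0.22 (SE 0.10, adjusted p = 0.252) and all 3 probes below 0. LAMP1, a heavily glycosylated protein of the lysosomal membrane, was at -0.16 (SE 0.11, adjusted p = 0.472). CD68 and LAPTM4A were close to 0, at -0.02 and -0.03.

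Of the 8 measured proteases, 3 had estimates above 0 and 5 below, between -0.34 and 0.12, with a median of -0.04. LGMN, legumain, which cuts after asparagine and matures several cathepsins, had the lowest, at -0.34 (SE 0.15, adjusted p = 0.231). It ran from -1.49 over -0.25 to 0.16, and the values under -0.9 were those of SKMM1 repeat 1. The cysteine protease CTSK was at 0.12 (SE 0.07, adjusted p = 0.403) and CTSL, of the same papain family, at -0.08 (SE 0.09, adjusted p = 0.688). CTSB, the most densely covered gene of the set with 8 probes, was at 0.04, with probes of both signs. CTSA, CTSC, CTSS and TPP1 lay between -0.08 and 0.07.

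HEXA, the alpha subunit of the hexosaminidase that trims ganglioside GM2, had the smallest p of the set. It ran from -0.33 over a median of 0.38 to 1.23, was above 0 on 13 of 16 arrays, and averaged 0.45 in the fit (SE 0.13, adjusted p = 0.0769). The values below 0 were all from H929. The other glycosidases were closer to 0, GLA, which removes galactose from glycolipids, at -0.13 (SE 0.07, adjusted p = 0.342) and MAN2B1, a mannosidase, at -0.02 (SE 0.09, adjusted p = 0.955). Of the lipid, sulfate and phosphate enzymes with their activators, IDS, the iduronate sulfatase, was at -0.13 (SE 0.09, adjusted p = 0.472) and ASAH1, acid ceramidase, at 0.07 (SE 0.12, adjusted p = 0.837). GM2A, the activator that presents ganglioside GM2 to the hexosaminidase, was above 0 on 14 of 16 arrays, but a single array at -5.13, day 3 of KMS12 with shCasp10-2, and 2 above 2 left its fit at 0.27 (SE 0.39, adjusted p = 0.788). LIPA and ACP2, an acid lipase and an acid phosphatase, were at 0.10 and -0.0008.

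**Figure D2:**
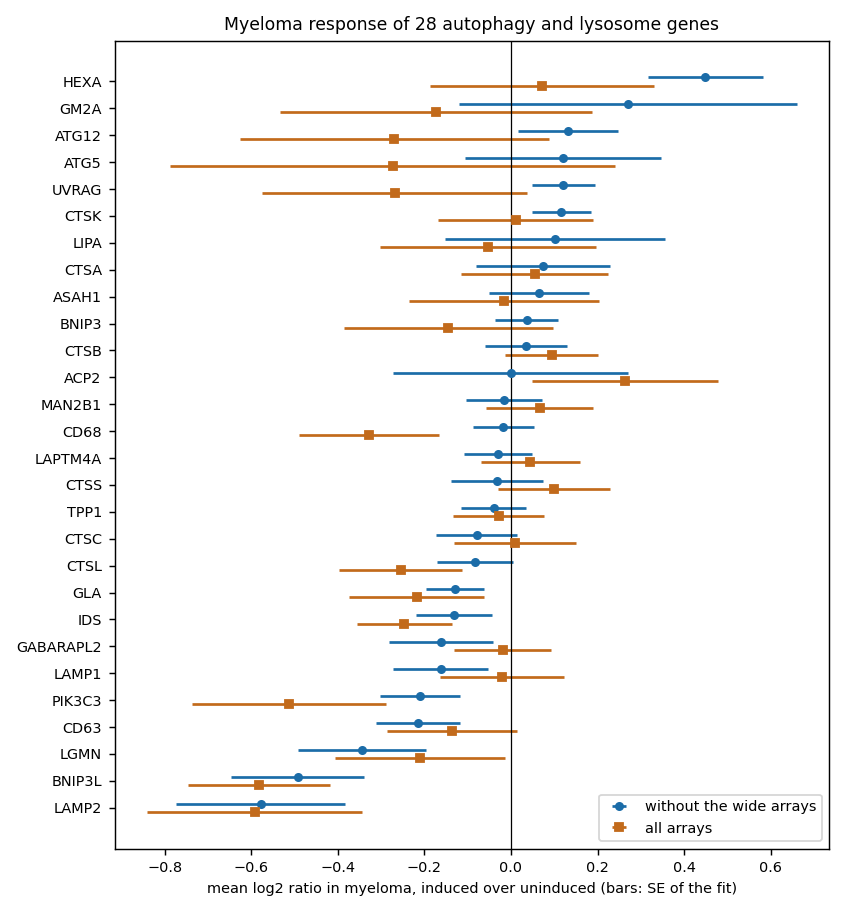
Estimated mean log2 ratio of induced over uninduced cells over the 3 myeloma lines (horizontal axis) for each of the 28 genes (vertical axis), without the wide arrays (circles) and with all arrays (squares); bars are the SE of the fit. None passed the adjusted threshold in either fit, and HEXA at 0.45 and LAMP2 at -0.58 are the ends of the range without the wide arrays.

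HEXA rose in induced SKMM1 cells and was the single gene of the 28 that passed there, where limma called 482 of 9681 features, 4.98%, 377 higher and 105 lower (411 and 378 with each array centred on its median), so that 1 of 28 is no more than the share over all features. In repeat 1 its ratios on days 2 to 4 were 1.03, 1.23 and 0.48. In repeat 3 it was 0.92 on day 2 and again on day 3, which gave a mean of 0.91 ± 0.27 (SD, n = 5 arrays). The fit gave 0.92 (SE 0.24, adjusted p = 0.0382). All 5 arrays were above 0, while day 1 of repeat 1 was at -0.24. The call rests on few arrays. In the wide repeat 2, HEXA on days 2 to 5 was 0.23, -1.28, -2.02 and -1.62, and with every array kept in the same fit the mean was 0.24 (adjusted p = 0.933). The call was also lost without SKMM1 repeat 1 or 3, H929 repeat 2 or either KMS12 course (adjusted p between 0.0504 and 0.305), and with the sign of repeat 3 turned the mean was 0.06.

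On all 5 SKMM1 arrays 6 of the 28 genes were above 0, HEXA among them, and 6 were below 0, beside 28.4% of all features above and 10.7% below. HEXA apart, none of these passed. LGMN in repeat 1 was -0.97, -1.30 and -1.49 on days 2 to 4, in repeat 3 it was -0.18 and -0.43 on days 2 and 3, with a fit of -0.83 (SE 0.27, adjusted p = 0.0657). CTSC, the cathepsin that activates serine proteases of granules, was -0.42, -0.61 and -0.75 in repeat 1 and -0.27 and -0.50 in repeat 3 on those days, with a fit of -0.50 (SE 0.17, adjusted p = 0.0756). Its values moved away from 0 with each day in repeat 1 and again in repeat 3, where the wide day 4 was -0.69 and day 5 was -0.76. In the wide repeat 2 CTSC ran the other way, -0.34, 0.16, 0.56 and 1.00 on days 2 to 5. LAMP1, CD63, IDS and LIPA were also below 0 on all 5 arrays, the first 3 with fits of -0.54 (adjusted p = 0.0909), -0.38 (adjusted p = 0.164) and -0.42 (adjusted p = 0.0977). BNIP3, ATG5, ATG12, UVRAG and GM2A were above 0 on all 5, at 0.36 (adjusted p = 0.0937) for BNIP3 and 1.04 (adjusted p = 0.109) for ATG5. These tallies take repeat 3 in the direction as deposited. With its sign turned the SKMM1 values were -0.53 for LGMN, -0.14 for CTSC, -0.17 for LAMP1, -0.18 for CD63 and -0.03 for IDS, and BNIP3 and ATG5 were then below 0, at -0.04 and -0.36 (each with adjusted p = 1.000). The set had 9 genes above 0 and 19 below with a median of -0.07, beside a median of 0.14 over all features, and 9 of the 28 had an unadjusted p under 0.05 against 27.4% of all features.

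The arrays against the control shRNA use a different Cy3 channel. LAMP1 fell in induced SKMM1 cells with shCasp10-2 against induced SKMM1 cells with the control shRNA, and it was the 1 gene of the 28 that passed, beside 335 of 9681 features, 3.46%, of which 317 were lower. That is 1 of 28 beside a similar share of all features. On all 4 arrays 4 of the 28 genes were above 0 and 12 below, beside 28% of all features above and 22.5% below. LAMP1 was -0.31, -1.47, -0.83 and -0.60 on days 1 to 4, below 0 on all 4 arrays, and days 2 to 4 gave -0.96 (SE 0.26, adjusted p = 0.0491). BNIP3, CD63, LGMN and IDS came next. BNIP3 was 0.65, 0.60, 0.76 and 0.36 on days 1 to 4, above 0 on all of them, with a fit of 0.57 (SE 0.18, adjusted p = 0.0780). CD63 was -0.45, -1.02, -0.74 and -0.52, with a fit of -0.76 (SE 0.23, adjusted p = 0.0790). LGMN was -1.18, -0.81, -1.63 and -0.96, below -0.8 on all 4 arrays, with a fit of -1.13 (SE 0.36, adjusted p = 0.0878).

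The SKMM1 courses against the 2 kinds of Cy3 channel share the induced line and hairpin but no array. The database numbers of the arrays against the control shRNA run on from those of repeat 1. The same induced RNA or culture may thus be in both, which the labels do not state. The fit took repeat 1 and the arrays against the control shRNA as separate courses. IDS was -0.18, -0.48, -0.83 and -0.62 on days 1 to 4 against the control shRNA (fit -0.64, SE 0.21, adjusted p = 0.0994), and in repeat 1 against uninduced cells -0.51, -0.39 and -0.35 on days 2 to 4. BNIP3L was -0.81, -0.90, -1.17 and -0.75 against the control shRNA (fit -0.94, SE 0.37, adjusted p = 0.177), and in repeat 1 -0.46, -0.62 and -1.21 on days 2 to 4. In repeat 3 BNIP3L was above 0 on all 4 days, at 0.23, 0.16, 0.99 and 0.30. HEXA was 0.75, -0.004, 0.23 and 1.18 on days 1 to 4 against the control shRNA and thus near 0 on day 2. In the set as a whole 8 genes were above 0 and 20 below against the control shRNA, with a median of -0.21 beside 0.04 over all features. There was 1 course of this kind, so its spread was borrowed from the other courses. The LAMP1 call was lost when any 1 of the H929 or KMS12 courses was left out (adjusted p between 0.0565 and 0.0796). It was also lost with the sign of SKMM1 repeat 3 turned (adjusted p = 0.283) and with the wide arrays in the fit (adjusted p = 0.461). With course means and with all days it was lost as well (adjusted p = 0.398 and 0.0607).

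**Figure D3:**
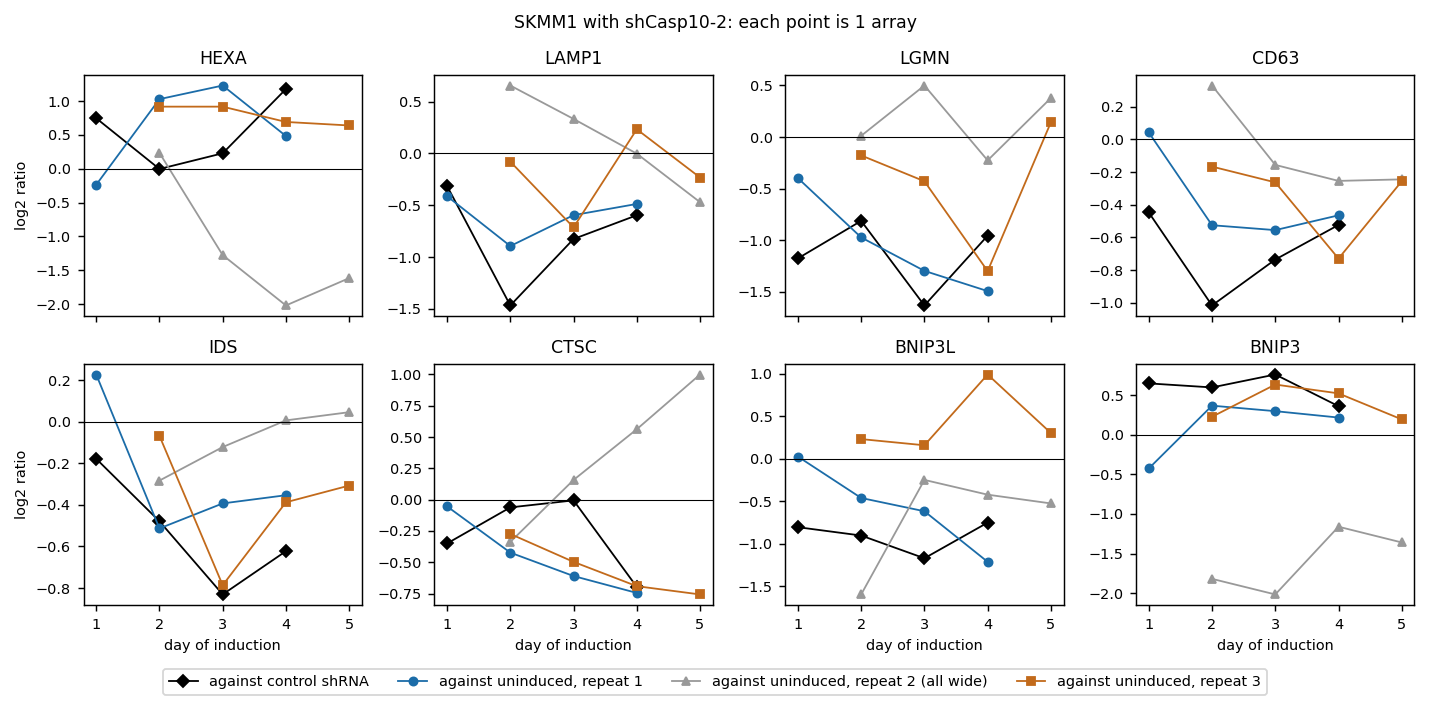
Log2 ratio (vertical axis) against the day of induction (horizontal axis) for 8 genes in SKMM1 with shCasp10-2; each point is 1 array. Diamonds are against the control shRNA, circles, triangles and squares are repeats 1, 2 and 3 against uninduced cells; LAMP1, LGMN, CD63 and IDS lie below 0 on all 4 diamonds, BNIP3 lies above 0 on them, and the wide repeat 2 stands apart for HEXA, CTSC and BNIP3.

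The 3 genes with the smallest p against the control shRNA, LAMP1, BNIP3 and CD63, have a promoter in RefSeq that holds CACGTG, the E-box letters at the core of the element bound by TFEB, a transcription factor of lysosomal genes. They are shown, 5′ to 3′ on the strand of the gene, for this reason. Each runs from 250 bases before the start to 50 bases after it, in GRCh38.p14, with every CACGTG in capitals. LAMP1 lies at chr13:113296989-113297288 on the plus strand, CD63 at chr12:55728960-55729259 and BNIP3 at chr10:131981874-131982173 on the minus strand. A single promoter was kept per gene. The CD63 window lies inside the gene, which reaches to base 55730041 in RefSeq, so its start is not the outermost one.
LAMP1: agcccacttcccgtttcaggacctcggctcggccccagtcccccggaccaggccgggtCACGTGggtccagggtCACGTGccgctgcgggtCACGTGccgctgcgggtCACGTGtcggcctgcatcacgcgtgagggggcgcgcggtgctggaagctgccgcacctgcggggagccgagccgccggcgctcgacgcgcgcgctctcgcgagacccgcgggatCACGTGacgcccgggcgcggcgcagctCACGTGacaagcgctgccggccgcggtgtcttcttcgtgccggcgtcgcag
CD63: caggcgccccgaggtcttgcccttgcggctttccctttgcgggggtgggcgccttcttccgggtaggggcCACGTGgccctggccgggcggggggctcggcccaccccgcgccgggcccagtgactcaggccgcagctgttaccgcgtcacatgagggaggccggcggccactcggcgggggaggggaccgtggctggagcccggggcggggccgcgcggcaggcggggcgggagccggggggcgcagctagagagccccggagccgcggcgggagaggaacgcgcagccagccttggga
BNIP3: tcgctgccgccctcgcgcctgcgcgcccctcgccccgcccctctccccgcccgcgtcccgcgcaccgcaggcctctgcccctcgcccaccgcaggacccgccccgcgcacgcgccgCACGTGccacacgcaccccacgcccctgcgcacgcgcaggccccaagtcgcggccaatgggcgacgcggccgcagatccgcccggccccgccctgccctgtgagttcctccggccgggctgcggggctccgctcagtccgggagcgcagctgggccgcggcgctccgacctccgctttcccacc
The LAMP1 window holds 6 copies and the others 1 each. A RefSeq promoter was at hand for 19 of the 28 genes, and 4 of the 19, these 3 and CTSA, hold CACGTG, which reads the same on both strands. Of 27305 promoters of this length in the table, 2030 hold it, 7.43%. The longer GTCACGTG, searched on both strands and overlapping the first motif, was in the windows of LAMP1 and CTSA and in 2.53% of all promoters. The full palindrome that GTCACGTG forms with its own reverse complement was in 0 of the 19 windows and in 0.381% of all promoters. A match in these letters is no sign that a factor binds there.

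Within the myeloma lines, H929 and KMS12 gave 0 calls among the 28 genes. In H929 limma called 0 of 9681 features, 0%, with 462 (4.77%) at an unadjusted p under 0.05, and for KMS12 the single call was 0.0103% of features, with 7.34% below 0.05 unadjusted. In H929 BNIP3 was 0.05 on day 4 with shCasp10-3, while with shCasp10-2 it was -0.32 and -0.38 (repeat 1, days 3 and 4) and -0.06, -0.09 and -0.69 (repeat 2, days 2 to 4), with a fit of -0.23 (SE 0.12, adjusted p = 1.000). BNIP3L was below 0 on all 6 of these arrays, at -0.43 (SE 0.24, adjusted p = 1.000), and IDS was above 0 on 5 of them, at 0.21 (SE 0.14, adjusted p = 1.000). In KMS12 PIK3C3 differed by course. With shCasp10-3 it was -0.28, -0.27, -0.06 and -0.02 on days 2 to 5. With shCasp10-2 it was -1.12 and -1.15 on days 3 and 4, after -3.20 and -2.68 on the wide days 1 and 2. Each hairpin had 1 course in KMS12, so hairpin and course cannot be told apart there. The fit for KMS12 was -0.62 (SE 0.17, adjusted p = 0.437), with BNIP3L at -0.71 (SE 0.28, adjusted p = 0.561) and CTSK at 0.29 (SE 0.12, adjusted p = 0.602). Without the shCasp10-3 course the PIK3C3 value was -1.13 (adjusted p = 0.0379).

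Differences between the lines were tested directly. SKMM1 had shCasp10-2 alone, while H929 and KMS12 had both hairpins, and the fit held no term for the hairpin. A difference between lines thus includes any difference between the hairpins. SKMM1 minus H929 gave 0 calls over all 9681 features, 0%, with 1299 (13.4%) at an unadjusted p under 0.05, and SKMM1 minus KMS12 gave 6, 0.062% (20.3% unadjusted), with none of the 28 genes among them. The 3 genes with the smallest p between SKMM1 and H929 were BNIP3 at 0.59 (SE 0.17, adjusted p = 0.255), IDS at -0.63 (SE 0.21, adjusted p = 0.271) and CTSC at -0.67 (SE 0.23, adjusted p = 0.272). BNIP3 was above 0 on all 5 SKMM1 arrays and below 0 on 5 of the 6 H929 arrays, but with the wide arrays in the fit the difference turned to -0.13, since BNIP3 averaged -1.67 in SKMM1 repeat 2. Between SKMM1 and KMS12 they were PIK3C3 at 0.71 (SE 0.24, adjusted p = 0.117; 1.22 with adjusted p = 0.0306 without KMS12 with shCasp10-3, and 1.00 with adjusted p = 0.0317 without SKMM1 repeat 1), CTSC at -0.59 (SE 0.24, adjusted p = 0.176) and GM2A at 2.36 (SE 0.99, adjusted p = 0.194). The GM2A difference was 1.32 without KMS12 with shCasp10-2, the course of the array at -5.13, 3.65 without KMS12 with shCasp10-3, and 0.79 with the sign of SKMM1 repeat 3 turned.

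**Figure D4:**
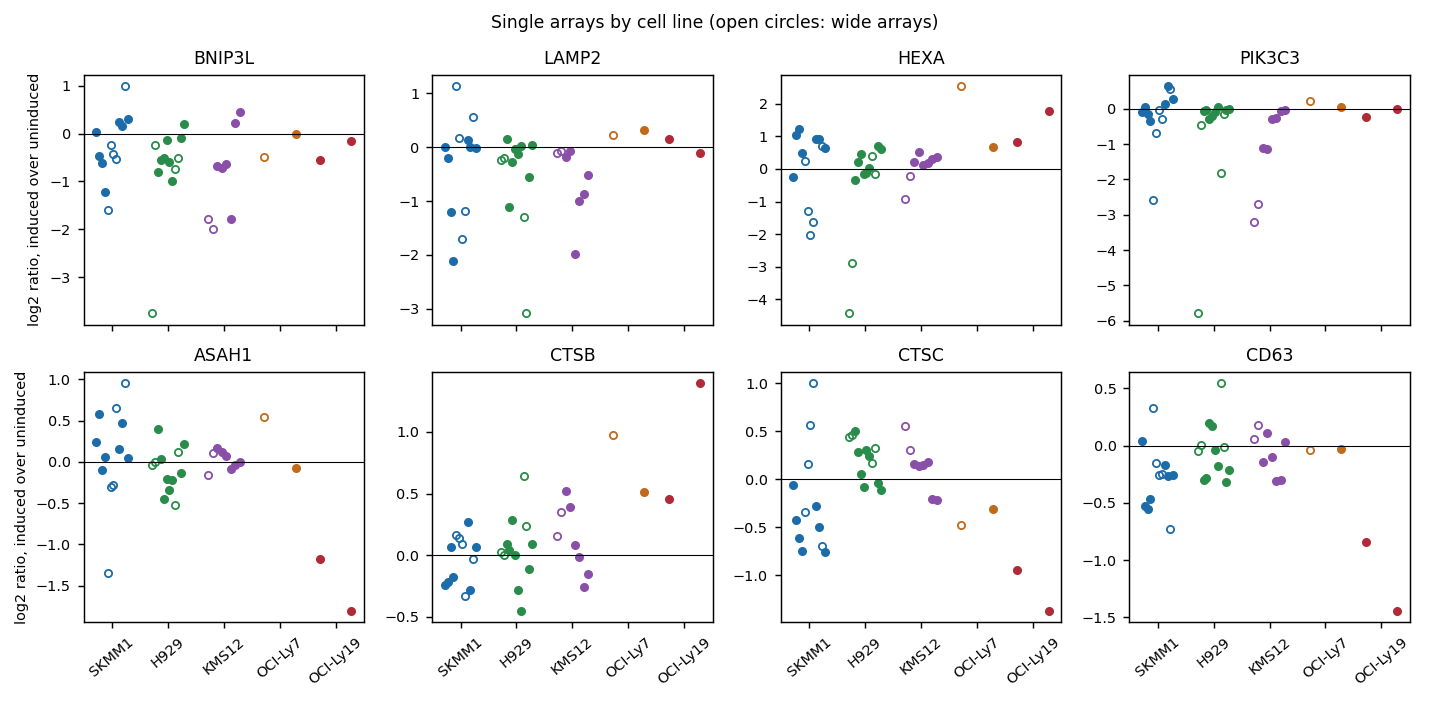
Log2 ratio of induced over uninduced cells (vertical axis) on single arrays by cell line (horizontal axis) for 8 genes; open circles are wide arrays. The OCI-Ly19 points of ASAH1, CTSC and CD63 lie below 0, and the far negative points of BNIP3L, HEXA and PIK3C3 in H929 are wide arrays.

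The lymphoma lines, tested on days 3 and 4, gave 0 calls among the 28 genes and 5 among 9681 features, 0.0516%, although 24.1% of all features had an unadjusted p under 0.05. ASAH1 was 0.54 and -0.07 on days 3 and 4 of OCI-Ly7, whose day 3 array is wide, and -1.18 and -1.81 on days 3 and 4 of OCI-Ly19. CTSC was -0.47 and -0.30 in OCI-Ly7 and -0.94 and -1.37 in OCI-Ly19. CD63 was -0.04 and -0.03 in OCI-Ly7 and -0.84 and -1.44 in OCI-Ly19. For these 3 genes the OCI-Ly19 arrays were the lower ones on each day, with day 4 further from 0 than day 3. CTSB and HEXA went the other way and were above 0 on all 4 arrays, CTSB at 0.98 and 0.52 in OCI-Ly7 and 0.45 and 1.39 in OCI-Ly19, and HEXA at 2.54 and 0.68 in OCI-Ly7 and 0.82 and 1.79 in OCI-Ly19.

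Both OCI-Ly7 arrays were above 0 and both OCI-Ly19 arrays below 0 for 4 of the 28 genes, UVRAG, ATG12, CD68 and LAPTM4A, beside 9.28% of all features. The fits of the lymphoma response were -0.81 for CTSC (SE 0.23, adjusted p = 0.0773), -0.91 for ASAH1 (SE 0.26, adjusted p = 0.0797) and 0.76 for CTSB (SE 0.22, adjusted p = 0.0798). HEXA was at 1.05 (SE 0.31, adjusted p = 0.0825) and CD63 at -0.69 (SE 0.23, adjusted p = 0.0977). LGMN was 0.26 and -0.26 on days 3 and 4 of OCI-Ly7 and 0.73 and 1.77 in OCI-Ly19. CTSS, a cathepsin of antigen presentation, was -0.21 and -0.10 in OCI-Ly7 and -0.25 and -1.47 in OCI-Ly19. The larger ratios of day 4 belonged to OCI-Ly19, in which CASP10 was 0.12 and -0.24 on days 3 and 4, and each lymphoma line was sampled once. Without the OCI-Ly7 course, 6 of the 28 genes passed on the OCI-Ly19 arrays alone, with the spread borrowed from the other courses. ASAH1 was then at -1.49 (adjusted p = 0.00133), CD63 at -1.14, CTSC at -1.15, CTSB at 0.92, HEXA at 1.30 and LGMN at 1.25, the last 5 with adjusted p between 0.00415 and 0.0393, beside 1051 features, 10.9%, called in all.

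Myeloma minus lymphoma, on days 3 and 4, called 1 of 9681 features, 0.0103%, and none of the 28 genes. The lymphoma lines had shCasp10-2 alone while H929 and KMS12 had both hairpins, and the fit held no term for the hairpin. ASAH1 was at 0.97 (SE 0.30, adjusted p = 0.172), CTSB was at -0.77 (SE 0.25, adjusted p = 0.181) and LGMN at -1.06 (SE 0.39, adjusted p = 0.205). HEXA, with positive estimates in myeloma and in lymphoma, differed by -0.62 (SE 0.35, adjusted p = 0.381). Without the OCI-Ly7 course 4 genes passed, ASAH1 at 1.54 (adjusted p = 0.00268), LGMN at -1.69, CTSC at 1.04 and CD63 at 0.90, beside 688 features, 7.11%, in all, so the calls between myeloma and lymphoma depend on whether that course is kept.

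Within H929 and KMS12, shCasp10-3 and shCasp10-2 could be set against each other. Each line had 1 course of shCasp10-3, and that of H929 had 1 array left. KMS12 had 1 course of shCasp10-2, with 2 arrays left. A difference between hairpins thus cannot be fully parted from one between courses. No feature was called, 0% of 9681, with 584 (6.03%) at an unadjusted p under 0.05. PIK3C3 had the smallest p of the set, at 0.54 (SE 0.22, adjusted p = 0.807), the KMS12 courses described above, followed by TPP1, which removes tripeptides from the ends of proteins, at -0.40 (SE 0.18, adjusted p = 0.815), and CTSA, a carboxypeptidase that also shields lysosomal galactosidase and neuraminidase, at -0.69 (SE 0.32, adjusted p = 0.817). CASP10 itself differed by 0.21 (SE 0.15, adjusted p = 0.860) between the hairpins.

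The change with the day of induction, fitted within the myeloma courses on the arrays of days 1 to 5 that were not wide, gave 0 calls, 0% of 9681, with 990 (10.2%) at an unadjusted p under 0.05. CTSS was at -0.12 per day (SE 0.04, adjusted p = 0.475), CTSC was at -0.11 per day (SE 0.04, adjusted p = 0.475) and MAN2B1 at -0.07 per day (SE 0.03, adjusted p = 0.485). Over the set 11 slopes were above 0 and 17 below. With the wide arrays in the fit the count of members called was 4, 14.3% of the set beside 11.7% of all features, with PIK3C3, UVRAG and ATG12 higher and CTSS lower with day, and the wide arrays are the early days of several courses.

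Other genes of these pathways were taken from 5 lists of 166 genes in all, of which 51 were measured. None passed in the myeloma response. Of 11 further autophagy genes, 9 had estimates above 0. RUBCN, an inhibitor of the PIK3C3 complex, was at -0.22 (SE 0.07, adjusted p = 0.106), and STX17, the SNARE that fuses autophagosome and lysosome, at 0.52 (SE 0.24, adjusted p = 0.258). The 13 genes of the mTORC1 and TFEB axis, the nutrient sensor and the factor it holds back, had 5 above 0 and 8 below. TSC1, a brake on mTORC1, was at -0.28 (SE 0.09, adjusted p = 0.135), and SLC38A9, an amino acid sensor of the lysosome, at 0.33 (SE 0.18, adjusted p = 0.359). Of 13 other lysosome genes, 6 were above 0, with ARSB, a sulfatase, at 0.32 (SE 0.12, adjusted p = 0.171) and RNASET2, a ribonuclease, at -0.18 (SE 0.07, adjusted p = 0.193). Both measured proton pump subunits were below 0, ATP6V0B at -0.26 (SE 0.11, adjusted p = 0.221) and TCIRG1 at -0.14 (SE 0.15, adjusted p = 0.695). Of 12 sorting genes, 7 were above 0, with VPS41, of the complex that tethers late endosomes, at 0.32 (SE 0.10, adjusted p = 0.104) and HGS, of the ESCRT machinery, at -0.33 (SE 0.12, adjusted p = 0.165).

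In single comparisons 3 of these 51 passed, 1 in SKMM1 and 2 against the control shRNA, which is no more than about the shares of all features given above, 4.98% and 3.46%. STX17 rose in SKMM1 by 1.72 (SE 0.43, adjusted p = 0.0340), which rests on repeat 3, since it was 0.34 without that repeat (adjusted p = 0.712) and 3.41 without repeat 1. With the sign of repeat 3 turned it was -1.40, and with every array in the same fit -0.15. Against the control shRNA TSC1 fell by 1.14 (SE 0.23, adjusted p = 0.0127) and TSG101, an ESCRT protein that sorts ubiquitinated cargo, fell by 0.96 (SE 0.22, adjusted p = 0.0241). The TSC1 call held when each other course was left out in turn, with adjusted p up to 0.0340, and the TSG101 call was lost without KMS12 with shCasp10-2 (adjusted p = 0.0575). Both were lost with the wide arrays in the fit (adjusted p = 0.974 for TSC1 and 0.284 for TSG101), with the sign of SKMM1 repeat 3 turned (0.117 and 0.156) and with course means (0.361 and 0.413). In SKMM1 against uninduced cells these 2 genes were at -0.40 (adjusted p = 0.140) and -0.45 (adjusted p = 0.0925).

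The spread of the set depended on the array. The median size of a log2 ratio over the 28 genes was 0.377 on the 12 wide arrays and 0.206 on the 28 others, beside 0.657 on the wide arrays and 0.285 on the others over all features. On a wide array between 2 and 13 of the 28 genes lay beyond 1 in size, with a median of 6, and on another array between 0 and 7, with a median of 1. The genes did not take part alike. ATG12 had a median size of 1.62 on wide arrays and 0.161 on the others, ATG5 1.45 and 0.409, and HEXA 1.10 and 0.471. LAMP1 was smaller on the wide arrays, at 0.147 against 0.301, and CD63 at 0.167 against 0.274. On day 1 of H929 repeat 1, PIK3C3 was -5.79 and HEXA -4.43 while LAMP1 stayed near 0.

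**Figure D5:**
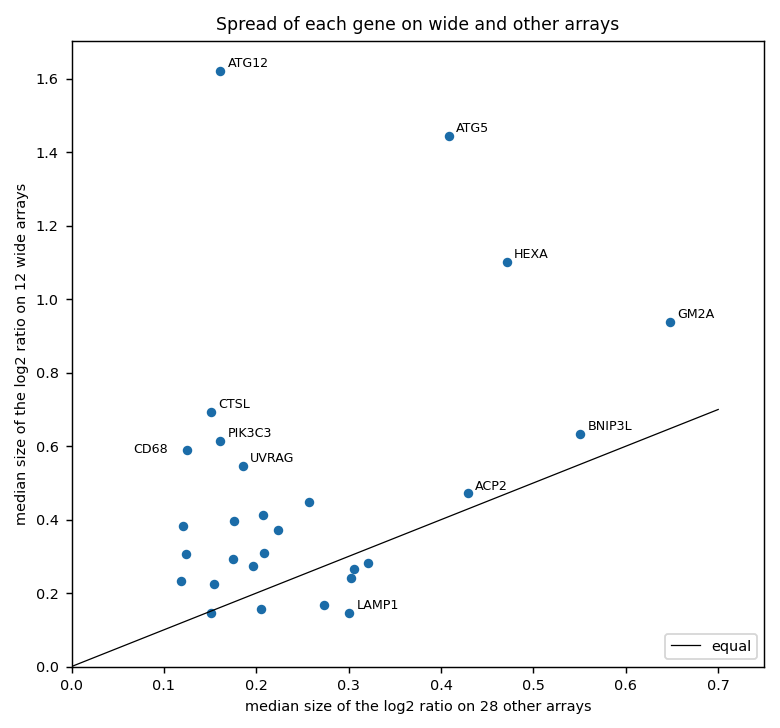
Median size of the log2 ratio on the 12 wide arrays (vertical axis) against that on the 28 other arrays (horizontal axis), each point 1 of the 28 genes; the line marks equal values. ATG12, ATG5 and HEXA lie far above the line, at 1.62, 1.45 and 1.10 on wide arrays, and LAMP1 lies below it.

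A stricter limit, with more than 5% of probes beyond 3, left out 6 more arrays and was set after the data were seen. SKMM1 against uninduced cells then rested on repeat 1 and lymphoma on OCI-Ly19, and the course correlation was kept as above. Against the control shRNA CD63 at -0.76 (adjusted p = 0.0281), LGMN at -1.13, IDS at -0.64 and LAMP1 at -0.96 passed, beside 9.45% of all features. In lymphoma ASAH1 at -1.49, CD63 at -1.14 and CTSC at -1.15 passed, beside 8.59%, and for myeloma minus lymphoma ASAH1 at 1.44 and LGMN at -1.80 passed, beside 3.75%. In the myeloma response LAMP2 passed at -0.85 (adjusted p = 0.0470), beside 4.03%, and so did CASP10 at -0.29 (adjusted p = 0.0497). In SKMM1 none of the 28 genes passed, HEXA included (adjusted p = 0.170), beside 0.609%.

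Where a gene had several probes, these did not always agree. Of the 14 genes with more than 1 probe, 9 had a single sign over their probes in the myeloma mean and 5 had both signs, namely ATG12, BNIP3, CD68, CTSB and CTSL. For BNIP3L in KMS12 the 3 probes were at -0.77, -1.29 and -0.09. CD63 against the control shRNA was at -1.17 and -1.09 by 2 probes and -0.02 by the third. HEXA, LAMP1, LGMN and CTSC, which carry much of what is described here, were each read by 1 probe, so no second probe bears on their values.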

How the data were processed

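The values used were log ratios that the authors deposited as processed, 1 per probe and array, read here as log2 of Cy5 over Cy3. Per the labels, 50 µg of total RNA, extracted with Trizol, was labelled for each dye. Neither intensities nor the normalisation, background correction and logarithm base are given in the labels, so signal over background is unknown and the number of arrays limits the precision. The arrays were not centred on the median, with medians between -0.11 and 0.31 on arrays that were not wide, and all had 1 dye orientation, so that each response against 0 includes any effect of the dyes.

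Probes were named through the platform annotation, which is old, and 10169 of 15246 probes had 1 symbol, 4 had several and 5073 none. The Entrez identifiers of 10128 matched the RefSeq table of GRCh38.p14. Probes of a gene were averaged and unnamed probes kept, which gave 9681 features. In the lines with several repeats, arrays of days 1 and 5 were placed in courses by consecutive database numbers, as most carried no repeat number. The SKMM1 arrays of day 5 are labelled repeat 1 and repeat 2. Their database numbers run with those of repeats 2 and 3, in that order, and they were placed there against their labels.

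The fits used limma 3.58.1 with statmod 1.5.0 in R 4.3.3 on single arrays, with the course as a random block (consensus correlation 0.281 for days 2 to 4, 0.380 for days 3 and 4), and, with all arrays, on course means. The fit was tested on simulated data with known changes. There each feature had the same spread on every array, unlike the real arrays. The simulation thus cannot show whether the p-values hold for these data. Genes named are those past 0.05, the 3 with the smallest p per role in myeloma and in each other comparison, CASP10, and the 2 with the smallest p of each further list; other values are given as ranges or because they share a comparison with these and were chosen after their values were seen. The set, its roles and the further lists were chosen with earlier results of these data known. Alternatives were the arrays kept, the limit for wide arrays, centring, probe medians, the sign of SKMM1 repeats 2 and 3, the variance prior, course means, all days and each course left out. The repeat numbers were not taken as pairs in the main fits. Correlations of deviations between same-numbered SKMM1 and H929 courses were -0.467 and -0.616, with the wide arrays included. The deviations of the 2 H929 courses mirror each other, so these values cannot show whether the repeats were paired. The arrays hold no 2 columns of 1 hybridisation, the highest r between arrays being 0.718.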

Additional observations from a re-analysis of the deposited data

Results flagged for a closer look

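For each gene the myeloma course means over days 2 to 4 were searched for a course far from the others by Dixon's test. This was done with and without the wide arrays, in 56 groups, and 11 such courses were found. The nominal rate of 1 in 20 groups holds for independent values of equal spread. Here the groups share arrays and the arrays differ in spread, so that rate does not apply. The rate over all features was not counted, so the 11 are not read as particular to these genes. With all arrays, SKMM1 repeat 2, whose arrays are all wide, stood apart for UVRAG at -2.28, BNIP3 at -1.67, CTSK at -1.12 and MAN2B1 at 0.36. H929 repeat 1 stood apart for GLA at -1.16, and SKMM1 repeat 3 for BNIP3L at 0.46. Without the wide arrays, SKMM1 repeat 1 stood apart for LGMN at -1.25, SKMM1 repeat 3 for ATG12 at 0.68, KMS12 with shCasp10-2 for PIK3C3 at -1.13 and CTSB at 0.45, and H929 with shCasp10-3 for CD68 at 0.56, a mean of 1 array.

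Between the lymphoma lines, every OCI-Ly7 array was above 0 and every OCI-Ly19 array below 0 for 4 genes, 14.3% of the 28, a pattern that 9.28% of all features showed. OCI-Ly7 minus OCI-Ly19 was 1.60 for ATG12, 0.55 for UVRAG, 0.29 for LAPTM4A and 0.0799 for CD68, and the difference was not tested.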

How the results depend on the processing

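The count of the 28 genes past the threshold moved with several choices, and the cause was not tested. A limit of 5% for wide arrays gave 8 in myeloma (26.8% of all features called), 10 in SKMM1 (30.1%), 1 in H929 (3.43%), 5 for SKMM1 minus H929 (5.25%), 2 for SKMM1 minus KMS12 (11.6%), and 11 each against the control shRNA (43.0%), in lymphoma (42.4%) and for myeloma minus lymphoma (33.97%). The course correlation there was estimated below 0 (-0.398 and -0.0875). With the main correlation kept, an alternative added after the data were seen, the counts were 1 in myeloma (LAMP2), 0 in SKMM1, 4 against the control shRNA, 3 in lymphoma and 2 for myeloma minus lymphoma. Centring gave 4 in SKMM1 (8.15% of features) and 2 against the control shRNA (5.29%), and shifted the median of all features in SKMM1 to 0.03, against 0.14 uncentred; in lymphoma it turned 2 higher and 3 lower features into 95 and 247. Probe medians gave 1 in myeloma (BNIP3L; 2.75% of features) and 3 against the control shRNA (4.40%). In SKMM1 the count was 0 with every array, with repeat 3 turned, with a trended robust prior, with course means and with all days, and against the control shRNA it was 0 with every array, repeat 3 turned or course means. The change with day gave 4 with every array (11.7%). Leaving out 1 course at a time gave 0 to 1 in myeloma, 0 to 7 in SKMM1, 0 to 1 in KMS12, 0 to 1 for SKMM1 minus KMS12, 0 to 5 against the control shRNA, 0 to 6 in lymphoma and 0 to 4 for myeloma minus lymphoma. The highest counts in SKMM1, lymphoma and myeloma minus lymphoma were those without OCI-Ly7 (17.98%, 10.9% and 7.11% of features). Those in myeloma and against the control shRNA came without OCI-Ly7 (4.95% and 7.82%) or OCI-Ly19 (5.13% and 8.07%). That in KMS12 came without KMS12 with shCasp10-3 (0.176%). For SKMM1 minus KMS12 it came without the same course (1.17%) or without SKMM1 repeat 1 (10.5%).

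Features called in all ranged over these alternatives between 0 and 2594 in myeloma (166 in the report), 0 and 2915 in SKMM1 (482), and 1 and 4162 against the control shRNA (335). STX17 in SKMM1 was -0.15 with every array and -1.40 with repeat 3 turned. HEXA in SKMM1 ranged between 0.06 and 0.92 and passed in 8 of 19 alternatives, and LAMP1 against the control shRNA ranged between -0.99 and -0.80 and passed in 9 of 18. The CASP10 mean over 8 courses was -0.22 with SKMM1 repeat 2 turned. With the replicate block, which could be fitted only with all arrays, for SKMM1 minus H929, 0 genes and 0 features were called, as without the block; without the wide arrays no residual degrees of freedom were left and it was not run.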
